A study of Gallus gallus with 6 samples.

Results

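Transcription factors of the FOX, SOX, TBX, KLF, GATA, PAX, DLX, RUNX, MEIS, PBX, IRX, LHX and NR2F families and of the sine oculis family (SIX3, SIX5, SIX6) were followed in cultured skin cells of chicken embryos whose TGF-beta receptor kinase had been inhibited. A gene belonged to the set when the platform annotation gave its probe set a single symbol of one of these families followed by a number. KLF10 and KLF15 were left out. This gave 99 genes with 165 probe sets, of 13009 genes and 38439 probe sets in all, and the probe set with the highest mean over the 6 arrays stood for each gene. The symbol rule also took in RUNX1T1, which is named after RUNX1 but carries no Runt domain.

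The cells were dermal myofibroblasts of the brown Leghorn breed, grown out of skin explants of embryos at day 10 of incubation, in medium with chicken serum at 2% and fetal bovine serum at 4%. TGFBR1 Kinase Inhibitor II, a compound dissolved in DMSO that stops the type I receptor of TGF-beta from phosphorylating its targets, was given to the inhibitor cultures for 48 h at a concentration of 500 nM. The DMSO cultures received the solvent alone at 0.1%. There were 3 biological replicates per group, 1 Affymetrix array each; the labels do not say whether these came from separate embryos, or from which part of the skin.

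Members of these families bind DNA through a shared domain: the forkhead of FOX proteins, the HMG box of SOX proteins, the T-box, the zinc fingers of KLF and GATA proteins, the Runt domain, or the homeodomain of DLX, LHX, IRX, MEIS, PBX and sine oculis proteins. They set and hold cell identity, and in skin fibroblasts several of them keep a record of the body region a cell came from. TGF-beta receptors act on genes through SMAD proteins, which bind DNA weakly and are guided by partners that include FOX and RUNX proteins.

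Values are log2 intensities, on which 1 unit is a doubling and values near 2 to 3 are the floor of the method. A probe set was tested if it reached 4 on at least 3 of the 6 arrays, whatever the group, and 46 of the 99 members did. No probe set that stood for a member reached this only through 1 group. The 53 others had means of 1.71 to 4.11, and 47 of them lay under 3. Across the series 8122 genes were tested. The deposited log2 values spanned 1.12 to 16 with array medians of 2.98 to 3.03. In such mixed RNA, fewer cells of a type and less RNA per cell cannot be told apart.

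All 13 fibroblast and myofibroblast markers listed were tested. VIM, the filament protein vimentin, had a mean of 15.76 in both groups. POSTN, the matrix protein periostin, fell 7.01-fold (-2.81 ± 0.55; limma adjusted p 0.0217) and PDGFRB, a PDGF receptor of mesenchymal cells, rose 2.29-fold (1.20 ± 0.18; 0.00919). With the replicate number as a block TWIST1 was also higher and COL1A2 lower. Throughout, each ± is the SE of the fit without the block, also where a p-value from the fit with the block stands beside it. COL1A1, COL3A1, FN1, PDGFRA, THY1, PRRX1, TAGLN and ACTA2 did not pass with or without the block. Of these, the contractile markers ACTA2 and TAGLN stood at 0.46 ± 0.26 (limma adjusted p 0.301) and -0.18 ± 0.09 (0.253). Of the markers of other cell types, all those on the array for red cells (HBAD, HBZ, HBA1) were under the filter, and 1 was tested for each of keratinocytes, skeletal muscle, cartilage and bone, neurons, melanocytes and Schwann cells, and fat cells. KRT14, TNNT3, COL2A1 and NEFL, from the first 4 of these lists, did not pass, whereas TP63, CDH1 and EPCAM, MYOD1, MYF5 and MYOG, ACAN and MATN1, and ELAVL4 and TUBB3 were under the filter. MITF, of melanocytes, was higher only with the block (0.97 ± 0.27; limma adjusted p 0.0619, and 0.00729 with the block), with PMEL, TYR, DCT and SOX10 under the filter. The summed log2 level of that list was 8.96 to 9.35 in inhibitor and 7.74 to 8.69 in DMSO cultures. This sum is nearly all MITF. LPL, a lipase of fat and muscle, rose 8.97-fold (3.16 ± 0.35; limma adjusted p 0.00333), with ADIPOQ, FABP4 and PLIN1 under the filter. FABP4 exceeded 4 in inhibitor replicate 3 only (4.25). The summed log2 level of the fat cell list was 7.66 to 8.66 in inhibitor and 5.32 to 5.84 in DMSO cultures. Most of this sum is LPL. The part of these cell types in the values of the factors was not tested.

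With the receptor kinase inhibited, 6 of the 46 tested members passed without the replicate block, and 15 passed with it. GATA6, RUNX1T1, FOXO3 and TBX15 rose, and RUNX1 and FOXP1 fell (limma, adjusted p under 0.05 over 16567 probe sets, no replicate block). The 6 are 13.0% of the tested members, beside 15.6% of all tested genes called in either direction, 8.16% called higher and 7.49% called lower, so the share is near that of the whole array. Without RUNX1T1, 3 of 45 rose. Among the 6, GATA6, RUNX1T1 and FOXO3 rose at least 2-fold and RUNX1 fell at least 2-fold, beside 3.78% of all tested genes for such rises and 3.18% for such falls. The median log2 difference of the tested members was 0.05, beside 0.01 over all tested genes, and the median size was 0.41, beside 0.24.

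The replicate numbers pair the samples (a check on the values is given with the processing), and with the replicate number as a block 15 of the 46 passed, 9 higher and 6 lower, 32.6% beside 31.6% of all tested genes (16.5% higher, 15.1% lower). All 6 were among the 15. The other 9 were LHX8, LHX9, PAX9, MEIS1 and KLF9, which were higher, and IRX2, SOX8, KLF2 and KLF3, which were lower. The inhibitor and DMSO values did not overlap for 17 members, 10 higher and 7 lower with inhibitor, 37.0% beside 38.6% of all tested genes. The difference kept one sign in all 3 pairs for 31 members, 67.4% beside 65.4% of all tested genes.

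**Figure D1:**
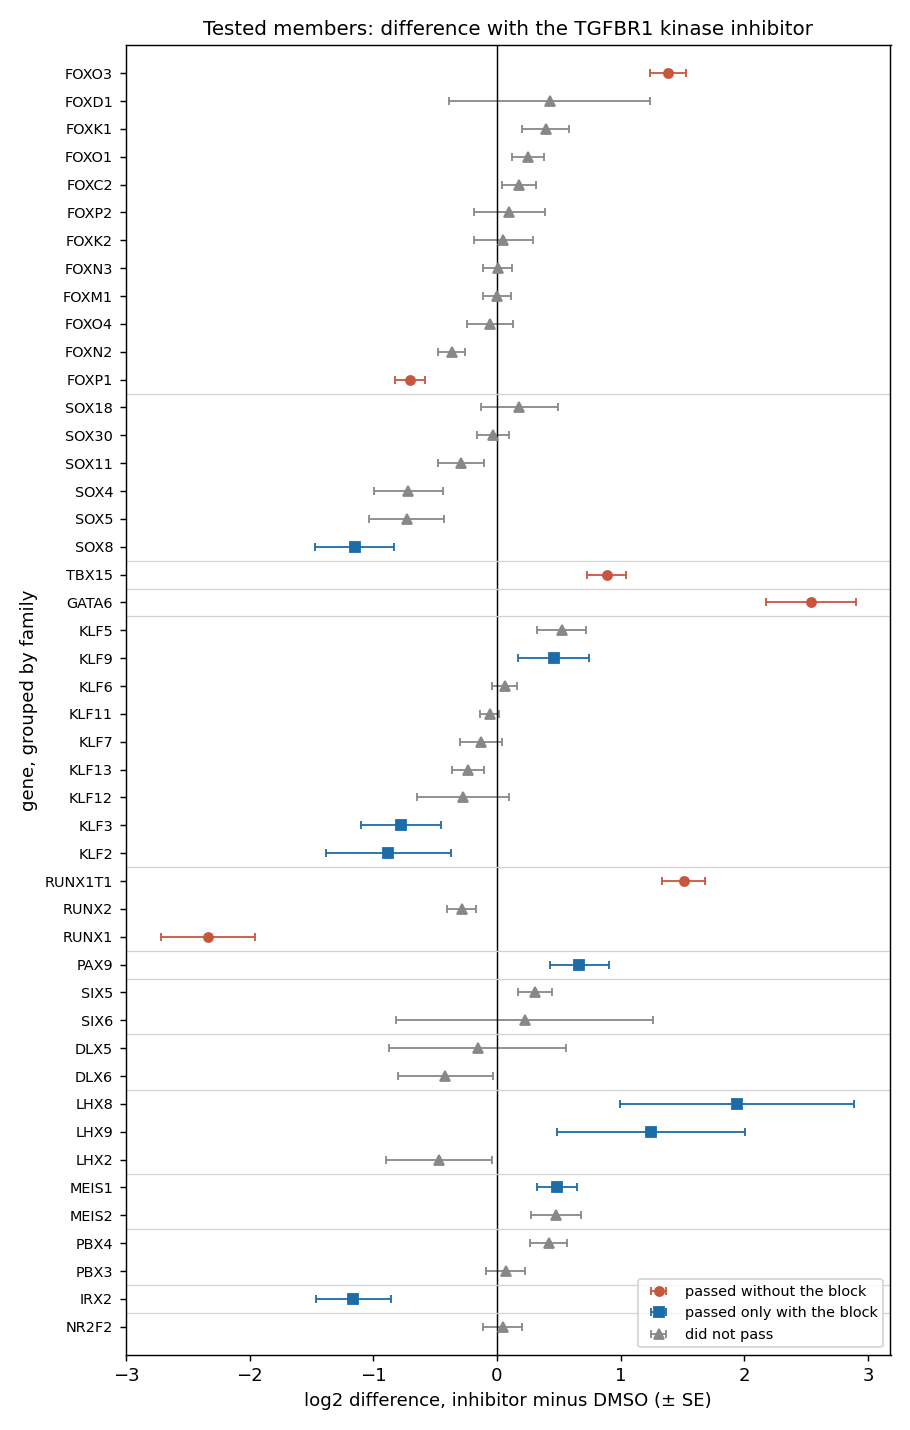
Log2 difference (inhibitor minus DMSO, horizontal axis) with its standard error for the 46 tested members, grouped by family down the page. Circles mark the 6 that passed without the replicate block, squares the 9 that passed only with it, triangles the 31 that did not pass; the ends of the range are GATA6 at 2.54 and RUNX1 at -2.34.

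GATA6, a zinc finger factor that acts in heart, smooth muscle and gut endoderm, was the GATA gene measured above the filter. Its log2 values were 9.85, 10.34 and 9.799 in inhibitor cultures, against 6.72, 8.14 and 7.504 in DMSO cultures. The lowest inhibitor culture lay 1.66 above the highest DMSO culture on this scale. GATA6 rose 5.81-fold (a log2 difference of 2.54 ± 0.36, with the SE of the fit and n = 3 per group; limma adjusted p 0.00771, and 0.00131 with replicate number as a block). GATA2, GATA3, GATA4 and GATA5 did not reach the filter, and neither did ZFPM1 or ZFPM2, zinc finger cofactors of GATA proteins.

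The RUNX proteins form a DNA-binding complex with the partner CBFB, which raises their affinity and stability. RUNX1, best known for the formation of blood stem cells, had log2 values of 6.71, 5.54 and 6.31 in inhibitor cultures, against 9.15, 8.22 and 8.21 in DMSO cultures. The groups were well apart, with the highest inhibitor culture under the lowest DMSO culture. A dimmer RUNX1 probe set, with a mean of 2.80 over the 6 arrays, did not reach the filter. RUNX1 fell to a level 5.06-fold lower (-2.34 ± 0.38; limma adjusted p 0.0118, and 0.0012 with the block). CBFB fell as well, by a smaller amount: 9.83, 9.64 and 9.55 in inhibitor cultures, against 10.51, 10.36 and 10.25 in DMSO cultures (-0.70 ± 0.12, 1.62-fold; limma adjusted p 0.0134, and 0.0548 without DMSO replicate 1). RUNX2, the factor of bone formation, lay lower in all 3 pairs but did not pass (-0.29 ± 0.12; limma adjusted p 0.161, and 0.101 with the block).

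RUNX1 is also a gene of blood cells, whose markers were partly present. Of 5 leukocyte markers listed, 4 were tested and none was called by limma, while SPI1 was at the floor (2.40 in inhibitor and 2.43 in DMSO cultures). The summed level of the 5 was 8.70 to 9.14 in inhibitor and 8.17 to 8.44 in DMSO cultures (log2). PTPRC, with means of 8.36 and 7.62, made up most of this sum. By gene the differences were 0.74 ± 0.22 for PTPRC, 0.58 ± 0.25 for CD74, 0.28 ± 0.25 for CTSS and -0.21 ± 0.15 for CSF1R. The part of such cells in the RUNX1 value was not tested.

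RUNX1T1, a corepressor that binds other factors and is fused to RUNX1 in some human leukaemias, went the other way. Its log2 values were 7.97, 7.68 and 8.16 in inhibitor cultures, against 6.56, 6.23 and 6.48 in DMSO cultures. The groups did not overlap, and RUNX1T1 rose 2.85-fold (1.51 ± 0.17; limma adjusted p 0.00389, and 0.00141 with the block). It rose in each pair by 1.41, 1.45 and 1.68. Its other probe sets, with means of 2.96 and 2.65 over the 6 arrays, did not reach the filter.

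**Figure D2:**
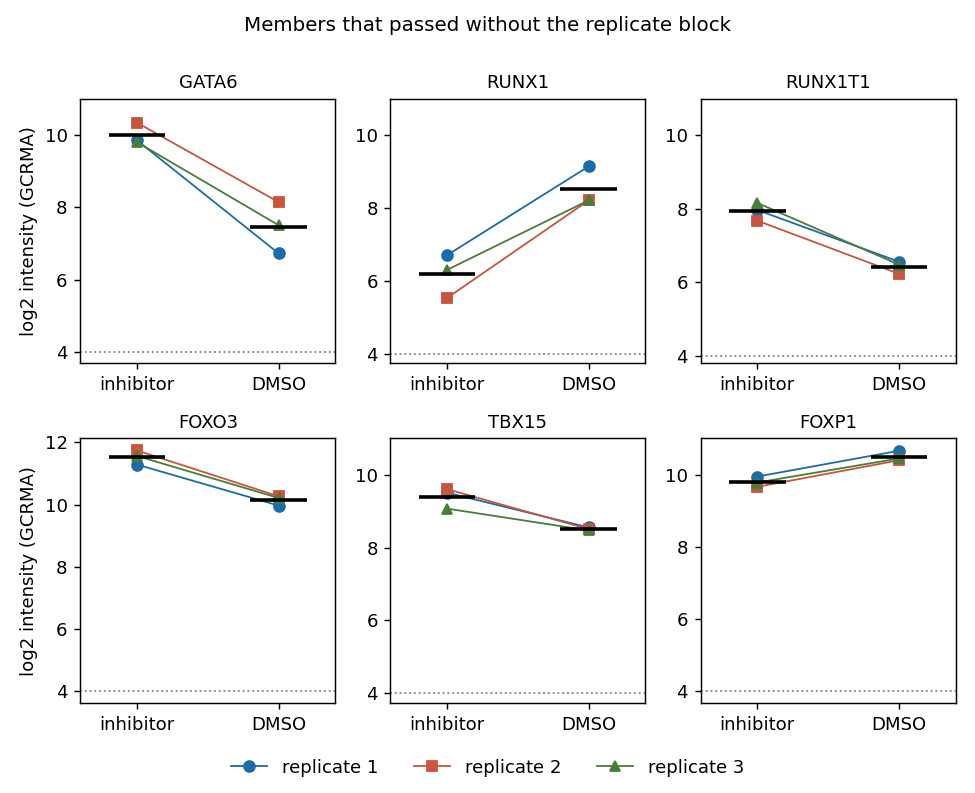
Log2 intensity in each of the 3 inhibitor and 3 DMSO cultures (horizontal axis) for the 6 members that passed without the replicate block; lines join cultures of the same replicate number, black bars are group means and the dotted line is the filter value of 4. In every panel all inhibitor values lie on one side of all DMSO values, above them for GATA6, RUNX1T1, FOXO3 and TBX15 and below them for RUNX1 and FOXP1.

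Among 12 tested FOX genes 1 rose and 1 fell, and this count was the same with the replicate block. The share was 16.7%, beside 15.6% of all tested genes without the block and 31.6% with it. FOXO3 belongs to the FOXO proteins, which growth factor signalling through AKT keeps out of the nucleus and which switch on genes of cell cycle arrest and stress resistance. Its log2 values were 11.29, 11.74 and 11.56 in inhibitor cultures, against 9.97, 10.27 and 10.21 in DMSO cultures. The groups were far apart relative to their spread, and FOXO3 rose 2.6-fold (1.38 ± 0.15; limma adjusted p 0.00286). The pair differences were 1.32, 1.47 and 1.35. A dimmer FOXO3 probe set reached the filter only through the inhibitor cultures (4.01, 4.70 and 4.18, against 2.68, 3.78 and 3.66 in DMSO cultures). Its difference of 0.92 ± 0.34 is therefore not counted as a further result.

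The other FOXO genes on the array did not pass. FOXO1 was higher by about the same small amount in each pair, 0.26, 0.29 and 0.21 (0.25 ± 0.13; limma adjusted p 0.249, and 0.0534 with the block). FOXO4 stood at -0.05 ± 0.19 (limma adjusted p 0.886; 95% interval of the difference -0.50 to 0.39).

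FOXP1, a forkhead repressor of lung, heart and lymphocyte development, had log2 values of 9.94, 9.66 and 9.78 in inhibitor cultures, against 10.66, 10.39 and 10.45 in DMSO cultures. All 3 inhibitor cultures lay below all DMSO cultures. FOXP1 fell 1.63-fold (-0.71 ± 0.12; limma adjusted p 0.0137), with pair differences of -0.71, -0.74 and -0.67. A dimmer FOXP1 probe set fell as well (-1.36 ± 0.26; limma adjusted p 0.0208). The FOXP1 call was lost without DMSO replicate 1 (-0.63; limma adjusted p 0.052).

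The remaining FOX genes tested were FOXC2, FOXD1, FOXK1, FOXK2, FOXM1, FOXN2, FOXN3 and FOXP2, and none passed with or without the block. FOXN3, a checkpoint repressor, stood at 0.01 ± 0.12 (95% interval -0.28 to 0.29), and FOXC2, which acts in mesenchyme and lymphatic vessels, at 0.18 ± 0.14 (95% interval -0.15 to 0.51). A dimmer probe set of each had the opposite sign (-0.24 ± 0.52 for FOXN3 and -0.13 ± 0.13 for FOXC2), and neither passed. FOXA1, FOXA2, FOXC1, FOXD2, FOXD3, FOXE3, FOXF1, FOXI1, FOXI2, FOXJ3, FOXL2 and FOXN1 did not reach the filter.

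Of 12 TBX genes TBX15 alone reached the filter. TBX15 is a T-box factor that in mice patterns the dermis and the skeleton of the back and limbs. Its log2 values were 9.51, 9.61 and 9.07 in inhibitor cultures, against 8.55, 8.504 and 8.47 in DMSO cultures. The DMSO cultures lay within 0.081 of one another and all inhibitor cultures above them. TBX15 rose 1.85-fold (0.89 ± 0.16; limma adjusted p 0.0167, and 0.00645 with the block). A dimmer TBX15 probe set had 6.18, 5.74 and 5.30 in inhibitor cultures, against 4.68, 3.96 and 3.99 in DMSO cultures. It reached the filter mostly through the inhibitor cultures, so its difference of 1.53 ± 0.30 is not counted as a further result. The call of the brighter probe set was lost without inhibitor replicate 1 or any single DMSO replicate (limma adjusted p 0.0526 to 0.0633). There the difference was 0.83 to 0.91. TBX1, TBX2, TBX3, TBX4, TBX5, TBX6, TBX10, TBX18, TBX19, TBX20 and TBX22 did not reach the filter.

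The LIM-homeodomain genes LHX8 and LHX9 varied widely between replicate numbers and were higher with inhibitor in every pair. LHX8, a factor of forebrain neurons, teeth and oocytes in mice, had log2 values of 9.75, 7.76 and 6.93 in inhibitor cultures, against 7.66, 6.25 and 4.72 in DMSO cultures. The groups overlap, yet within each replicate number the inhibitor culture was the higher one, by 2.09, 1.51 and 2.21. LHX8 did not pass without the block (1.94 ± 0.95; limma adjusted p 0.233) and passed with it (0.00179). LHX9, which acts in gonad and limb, had 7.03, 5.79 and 7.99 in inhibitor cultures, against 5.37, 4.66 and 7.05 in DMSO cultures. Its replicate 3 was the highest in both groups, and the pair differences were 1.67, 1.13 and 0.94 (1.24 ± 0.76; limma adjusted p 0.334, and 0.00726 with the block). Of 2 dimmer LHX9 probe sets, 1 passed with the block (0.0449) and the other did not (0.0523).

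LHX2, a factor of limb outgrowth and hair follicle stem cells, was close to the filter value and did not pass (-0.47 ± 0.43). LHX1, LHX3, LHX5 and LHX6 did not reach the filter. LDB2, an adaptor that binds LIM-homeodomain proteins, was higher only with the block (0.80 ± 0.21; limma adjusted p 0.0563, and 0.0112 with it), and LDB1 did not reach the filter.

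IRX2, an Iroquois homeodomain factor of limb and neural patterning, was lower with inhibitor in every pair. It had log2 values of 5.29, 5.33 and 5.997 in inhibitor cultures, against 6.42, 6.44 and 7.24 in DMSO cultures. The groups did not overlap, and replicate 3 was again the highest in each. The pair differences of -1.13, -1.11 and -1.24 were close to each other (-1.16 ± 0.30; limma adjusted p 0.0523, and 0.00323 with the block). Its call without the block turned on the setting, with limma adjusted p of 0.0431 after quantile normalization and 0.046 after median centring. It passed in 5 of 7 alternative settings, the block among them, and the limma adjusted p reached 0.136 over the 7. Of 6 fits that left out 1 array, IRX2 passed in 1 (limma adjusted p 0.0466 to 0.147 over the 6). IRX1 did not reach the filter but exceeded 4 in replicate 3 of both groups (5.89 with inhibitor and 4.35 with DMSO). IRX4 and IRX5 did not exceed it.

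Both MEIS genes, homeodomain cofactors of HOX and PBX proteins, were higher in all 3 pairs. MEIS1 had log2 values of 7.83, 8.203 and 8.24 in inhibitor cultures, against 7.51, 7.76 and 7.55 in DMSO cultures, without overlap, and passed only with the block (0.49 ± 0.16; limma adjusted p 0.0977 without and 0.0367 with it). MEIS2 did not pass (0.48 ± 0.20; 0.0799 with the block). Of their partners, PBX4 stood at 0.42 ± 0.15 (limma adjusted p 0.061 with the block) and PBX3 at 0.07 ± 0.16, a difference with a 95% interval of -0.32 to 0.46. Dimmer PBX4 probe sets stood at 0.008 ± 0.18 and 0.11 ± 0.14 and did not pass with or without the block. PAX9, a paired-box factor of teeth, palate and vertebrae, had 5.45, 5.11 and 4.67 in inhibitor cultures, against 4.47, 4.63 and 4.14 in DMSO cultures, close to the filter value. PAX9 passed only with the block (0.67 ± 0.24; limma adjusted p 0.123, and 0.0365 with the block). PAX2, PAX3, PAX5, PAX6 and PAX7 did not reach the filter.

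**Figure D3:**
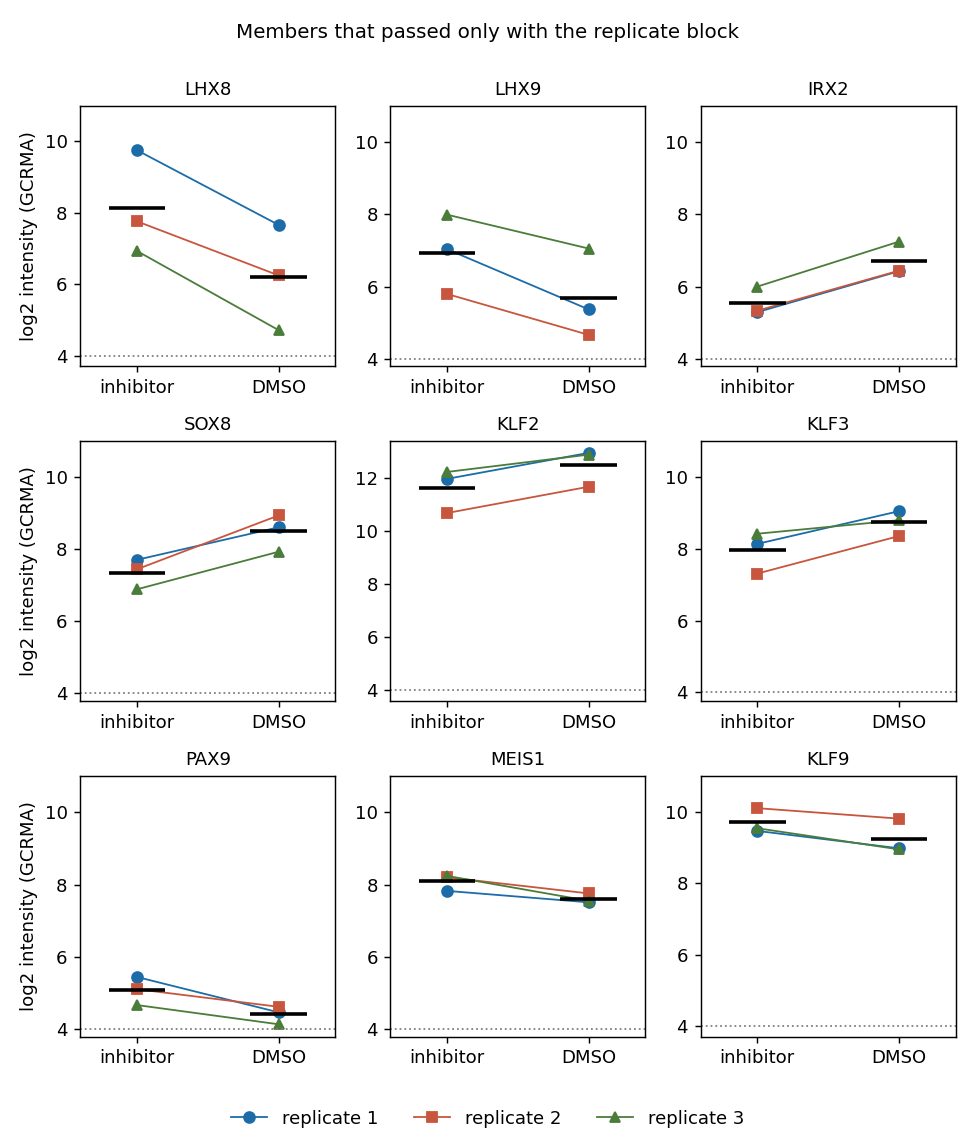
Log2 intensity in each inhibitor and DMSO culture (horizontal axis) for the 9 members that passed only with the replicate block; lines join cultures of the same replicate number, black bars are group means and the dotted line is the filter value of 4. The lines of a panel slope the same way in all 3 pairs, whereas the heights differ between replicate numbers, most for LHX8 and LHX9.

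Of 9 tested KLF genes none passed without the block, beside 15.6% of all tested genes. With it 33.3% passed, beside 31.6% of all tested genes. KLF proteins bind GC-rich sites through C-terminal zinc fingers and act as activators or repressors. KLF2, known in endothelium for its response to blood flow, had log2 values of 11.97, 10.68 and 12.24 in inhibitor cultures, against 12.96, 11.68 and 12.89 in DMSO cultures. Replicate 2 was lowest in both groups, so the groups overlap, but the inhibitor culture of each pair was the lower one, with differences of -0.98, -0.996 and -0.66 (-0.88 ± 0.50; limma adjusted p 0.307, and 0.00248 with the block). KLF3, a repressor that recruits CtBP corepressors, showed 8.13, 7.31 and 8.42 in inhibitor cultures, against 9.04, 8.35 and 8.79 in DMSO cultures. KLF3 likewise passed only with the block (-0.78 ± 0.32; limma adjusted p 0.169, and 0.0191 with the block). KLF9, a target of glucocorticoid and thyroid hormone, was higher only with the block, with pair differences of 0.49, 0.29 and 0.59 (0.46 ± 0.29; limma adjusted p 0.347, and 0.0211 with the block).

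Endothelial markers are given beside KLF2 because it is abundant in endothelium. Of 6 listed, PECAM1 was tested and fell (-0.82 ± 0.20; limma adjusted p 0.0409), and CDH5, KDR, TEK, TIE1 and VWF did not reach the filter. Their summed level was 5.84 to 6.36 in inhibitor and 6.28 to 6.84 in DMSO cultures (log2), which overlap. VWF exceeded 4 in replicate 2 of both groups (4.46 with inhibitor and 4.98 with DMSO), and CDH5 in inhibitor replicate 2 only (4.03). The part of endothelial cells in the KLF2 value was not tested.

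KLF6, an early response gene of injured tissue, had log2 values of 13.14, 13.19 and 13.34 in inhibitor cultures, against 13.08, 13.35 and 13.06 in DMSO cultures, which overlap (0.06 ± 0.10; 95% interval -0.19 to 0.31). Its 2 dimmer probe sets had the opposite sign (-0.09 ± 0.19 and -0.07 ± 0.13) and did not pass. KLF13 stood at -0.23 ± 0.13 (95% interval -0.54 to 0.07), and 1 of its 3 dimmer probe sets had the opposite sign (0.03 ± 0.10). KLF5, a factor of proliferating epithelium and smooth muscle, was higher without overlap but did not pass (0.52 ± 0.20; limma adjusted p 0.142, and 0.119 with the block). KLF7, KLF11 and KLF12 did not pass, and KLF4 did not reach the filter. CTBP2, a CtBP corepressor, was higher only with the block (0.43 ± 0.11; limma adjusted p 0.0514, and 0.0156 with the block), and CTBP1 did not pass (0.03 ± 0.07).

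Of 6 tested SOX genes 5 had lower means with inhibitor, beside 3980 of all 8122 tested genes. Only with the block did 1 pass, 16.7% beside 31.6% of all tested genes. SOX8, an HMG-box factor related to the cartilage factor SOX9, had log2 values of 7.69, 7.43 and 6.87 in inhibitor cultures, against 8.599, 8.93 and 7.92 in DMSO cultures. The groups did not overlap and the pair differences were -0.91, -1.497 and -1.05 (-1.15 ± 0.32; limma adjusted p 0.0627, and 0.00499 with the block). Of 6 fits that left out 1 array, without the block, SOX8 passed in 1, the fit without DMSO replicate 3 (-1.43, limma adjusted p 0.0451). Over the 6 the limma adjusted p reached 0.176. SOX4, a factor of progenitor and mesenchymal cells, had 7.68, 7.17 and 6.57 in inhibitor cultures, against 7.74, 7.92 and 7.91 in DMSO cultures, without overlap, and did not pass (-0.72 ± 0.28; 0.09 with the block). Its close relative SOX11 (-0.29 ± 0.19) and SOX5, a cartilage cofactor (-0.73 ± 0.30), did not pass either, nor did SOX18 (0.18 ± 0.31) and SOX30 (-0.03 ± 0.13). SOX1, SOX2, SOX3, SOX6, SOX7, SOX9, SOX10, SOX13, SOX14 and SOX17 did not reach the filter.

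SIX5, a homeodomain factor of the sine oculis family, was higher in all 3 pairs and did not pass (0.31 ± 0.14; limma adjusted p 0.0725 with the block), and SIX3 did not reach the filter. Sine oculis proteins act with the EYA coactivators. EYA2 (1.67 ± 0.51; limma adjusted p 0.0808, and 0.0227 with the block) and EYA4 (1.26 ± 0.42; 0.105, and 0.0107 with the block) were higher only with the block. EYA2 had log2 values of 6.31, 4.50 and 6.18 in inhibitor cultures, against 3.73, 3.79 and 4.46 in DMSO cultures. It reached the filter mostly through the inhibitor cultures, so its difference is not counted as a further result. EYA3 did not pass (-0.26 ± 0.10), and EYA1 did not reach the filter. NR2F2, the orphan nuclear receptor COUP-TFII of veins and mesenchyme, had 11.16, 10.98 and 11.43 in inhibitor cultures, against 10.91, 11.28 and 11.25 in DMSO cultures, which overlap (0.05 ± 0.16; 95% interval -0.33 to 0.42).

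Several members differed more between replicate numbers than between inhibitor and DMSO. For each gene the 2 values of a replicate number were averaged, and the range of the 3 averages was set beside the inhibitor difference. For 9 of the 46 this range was at least 1 log2 unit and larger than the inhibitor difference, beside 4.44% of all tested genes. This threshold was set after the values were seen, and the count is a description. The 9 were SIX6, LHX8, FOXD1, LHX9, DLX5, KLF2, LHX2, DLX6 and KLF12; of these DLX6, FOXD1, LHX2, SIX6 and KLF12 are given here because of their values.

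DLX5, a homeodomain factor of jaw and limb, had log2 values of 7.96, 6.93 and 9.15 in inhibitor cultures, against 8.35, 7.003 and 9.17 in DMSO cultures. Replicate 2 was lowest and replicate 3 highest in both groups, and the pair differences were -0.38, -0.069 and -0.014 (-0.16 ± 0.72). Its neighbour in the genome DLX6, with 4.62, 4.33 and 5.08 in inhibitor cultures, against 5.13, 4.37 and 5.79 in DMSO cultures, had the same order of replicate numbers in both groups. DLX1 and DLX3 did not reach the filter.

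FOXD1, a forkhead factor of kidney stroma and dermal mesenchyme, had 5.05, 7.75 and 6.45 in inhibitor cultures, against 4.79, 7.07 and 6.12 in DMSO cultures. Here replicate 1 was lowest and replicate 2 highest in both groups, and the range over replicate numbers was 2.49, against an inhibitor difference of 0.43 ± 0.81. The pair differences of FOXD1 were 0.26, 0.68 and 0.34, and it did not pass with the block (limma adjusted p 0.0878). SIX6, a factor of eye and pituitary, had 6.37, 4.31 and 5.74 in inhibitor cultures, against 6.89, 2.999 and 5.86 in DMSO cultures, with replicate 2 lowest in both groups (0.22 ± 1.04). LHX8 was highest in replicate 1 of both groups, over a range of 2.88. The labels give no origin of the cultures that would set these replicate numbers apart.

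**Figure D4:**
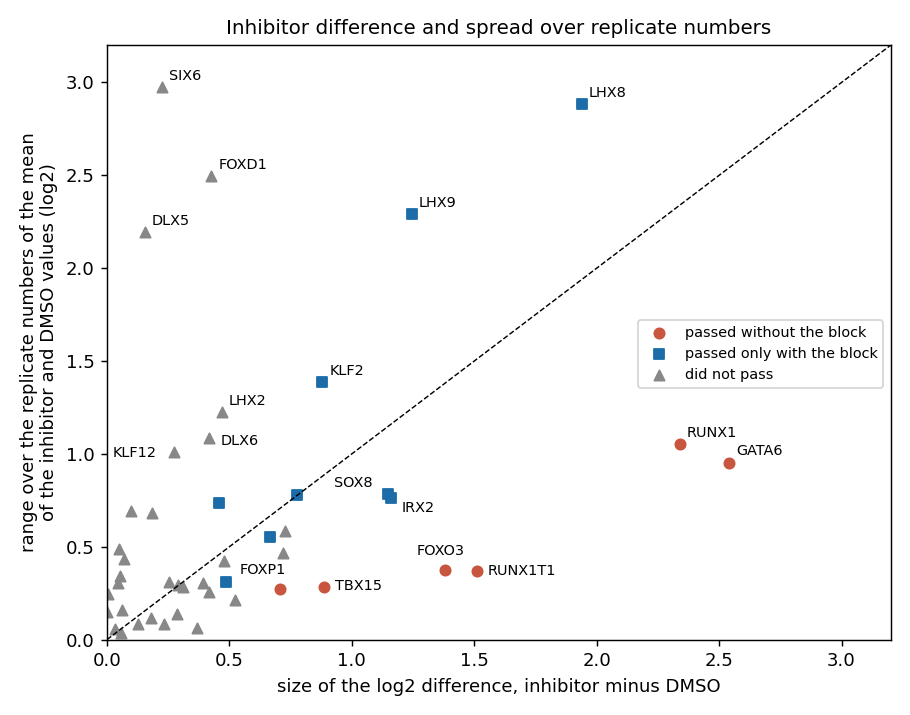
For each of the 46 tested members, the size of the log2 difference between inhibitor and DMSO (horizontal axis) and the range over the 3 replicate numbers of the mean of the inhibitor and DMSO values (vertical axis, log2); the dashed line marks equality. GATA6, RUNX1, RUNX1T1, FOXO3, TBX15 and FOXP1 lie below the line, whereas SIX6, LHX8, FOXD1, LHX9 and DLX5 lie above it with ranges of 2.19 to 2.97.

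Of 39 genes listed from textbook knowledge as partners and cofactors of these families, 36 were on the array and 25 were tested. MEOX2 rose and CBFB and MSX1 fell, 12.0% of the 25 beside 15.6% of all tested genes. With the block 7 rose, EYA2 among them, and 3 fell, 40.0% beside 31.6%. The median log2 difference of the 25 was 0.09, beside 0.01 over all tested genes. MEOX2, a homeobox factor of mesoderm and vessel wall, had log2 values of 10.12, 9.74 and 10.85 in inhibitor cultures, against 8.15, 7.803 and 8.69 in DMSO cultures. Replicate 3 was highest in both groups, and MEOX2 rose 4.06-fold (2.02 ± 0.34; limma adjusted p 0.0131, and 0.0565 without DMSO replicate 1). MSX1, a homeobox repressor that opposes DLX proteins, had 7.34, 7.81 and 7.17 in inhibitor cultures, against 9.06, 9.08 and 8.47 in DMSO cultures. The groups did not overlap, and MSX1 fell 2.69-fold (-1.43 ± 0.24; limma adjusted p 0.0132, and 0.0527 and 0.058 without inhibitor or DMSO replicate 1). Its relative MSX2 was higher only with the block (0.58 ± 0.27; limma adjusted p 0.222, and 0.0181 with the block). TGIF1, a homeodomain corepressor that binds SMAD proteins, was lower only with the block (-1.01 ± 0.33; limma adjusted p 0.0976, and 0.0485 with the block). HAND2, a basic helix-loop-helix factor of limb and heart, was higher only with the block (0.59 ± 0.15; limma adjusted p 0.0514, and 0.0245 with the block).

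**Figure D5:**
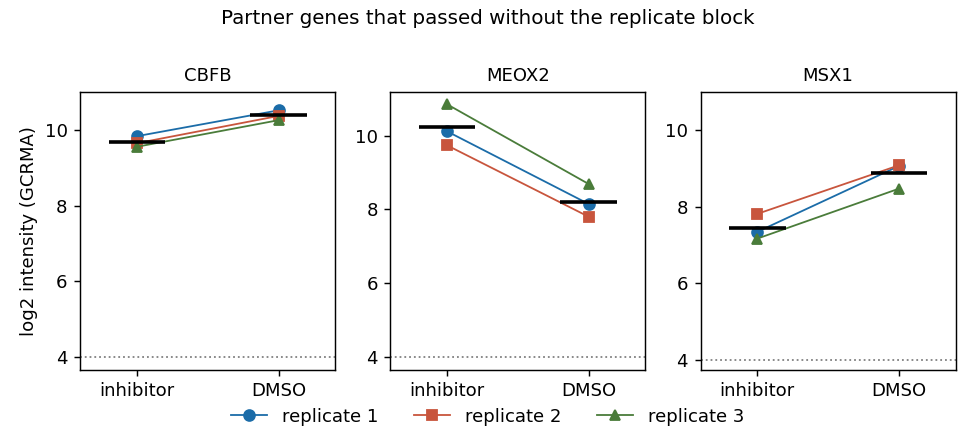
Log2 intensity in each inhibitor and DMSO culture (horizontal axis) for the 3 partner genes that passed without the replicate block; lines join cultures of the same replicate number, black bars are group means and the dotted line is the filter value of 4. All inhibitor values of CBFB and MSX1 lie below, and those of MEOX2 above, the DMSO values.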

How the data were processed

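RNA from 6 cultures was measured on Affymetrix chicken arrays. The authors' deposited values are log2 intensities of probe sets, made with GCRMA (background correction and normalization of probe signals) and Partek 6.4, per the submitters' processing notes. The settings were not given in the sources used here; the log2 scale was read from the values. GCRMA gathers dim probe sets at a floor, which can shrink differences there.

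Without 96 controls of 38535 probe sets, the 16567 with a log2 value of at least 4 on at least 3 arrays were fitted in limma 3.58.1 (R 4.3.3; lmFit, eBayes with trend), two-sided, inhibitor minus DMSO, adjusted by Benjamini-Hochberg over all of them, and the fit was tried on simulated data. Symbols came from the platform annotation, which can be old; all 99 member identifiers were in the RefSeq gene table of GRCg7b, which changed 0 symbols. Probe sets ending in _s_at can bind several transcripts. Among the tested genes given here they represent FOXO4, FOXN2, FOXM1, KLF5, KLF11, KLF13, PBX3, PBX4, SOX30, CBFB, MSX1, EYA4, HAND2 and CTBP1. The same holds for the markers LPL, CSF1R and CTSS.

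Deviations from the group means correlated at 0.63, 0.67 and 0.45 between same-numbered arrays, so the numbers pair the samples, although the labels describe no pairing. Between others they correlated at -0.45 to -0.14, which follows from the positive values because deviations cancel within each group. The pairing was read from the same values that were then tested. Without the block, p-values set a difference against the spread between replicates of a group. With it, they set the difference against the spread of the pair differences. Alternatives were the replicate block, no filter or a filter at 5, median centring, quantile normalization, no trend, the mean of a gene's probe sets, and each array left out in turn.

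Members, lists and tests were chosen with earlier results of these data known. Named were members called with or without the block, the member of each family with the highest mean, members whose probe sets differed in call or sign, and called partner genes. Others, named after their values were seen, include FOXO1, FOXO4, SOX4, SOX5, SOX11, MEIS2, PBX4, KLF5 and partner genes that passed only with the block. Sequences were not used here.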

Additional observations from a re-analysis of the deposited data

How the results depend on the processing

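GATA6, RUNX1, RUNX1T1 and FOXO3 passed in all 13 alternatives run (7 other settings and 6 fits without 1 array), at limma adjusted p of 0.000531 to 0.0382 over the 4. FOXP1 and TBX15 passed in the 7 other settings. Without 1 array the 6 differences were 2.17 to 2.88 for GATA6, -2.602 to -2.02 for RUNX1, 1.398 to 1.64 for RUNX1T1, 1.28 to 1.503 for FOXO3, 0.78 to 1.05 for TBX15 and -0.78 to -0.63 for FOXP1. The 6 member calls became 15 with the replicate block (9 higher, 6 lower) and 6 or 7 in the other settings, in which the 6 remained and any seventh was IRX2. Without 1 array they were 4 to 7 (3 to 4 higher, 1 to 3 lower), fewest without DMSO replicate 1, where 1 member, RUNX1, was called lower. Over all probe sets limma called 2283, 4661 with the block, 1285 with no filter and 1107 to 1658 without 1 array. The block ended no member call; the cause of calls lost without 1 array was not tested. Some small differences that did not pass changed sign: FOXN3 stood at -0.029 after median centring and -0.12 as the mean of its probe sets, and KLF6 at -0.033 in the same way. The fits without 1 array had no block, and each left 1 culture without its pair. Within the 3 pairs DLX5, PBX3, FOXD1 and KLF12 kept one sign, whereas FOXN3, NR2F2, SIX6 and FOXO4 did not. Without 1 array the differences spanned -0.74 to 0.39 for DLX5, -0.065 to 0.073 for FOXN3, -0.075 to 0.15 for NR2F2, -0.065 to 0.18 for PBX3, -0.24 to 1.11 for FOXD1, -0.901 to 1.05 for SIX6, -0.59 to 0.036 for KLF12 and -0.19 to 0.14 for FOXO4. For members that passed only with the block, they spanned, in fits without it, 1.14 to 2.67 for LHX8, 0.72 to 1.92 for LHX9, 0.48 to 0.87 for PAX9, 0.41 to 0.62 for MEIS1, 0.26 to 0.74 for KLF9, -1.39 to -0.89 for IRX2, -1.43 to -0.92 for SOX8, -1.29 to -0.404 for KLF2 and -1.01 to -0.45 for KLF3. Low signal kept 53 members from being tested, and 3 arrays per group limit the precision. Of the genes given with a difference, KLF12, LHX2, PAX9, SOX5, EYA2, EYA4 and the leukocyte marker CTSS were not tested at the stricter filter of 5.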
